A study of Mus musculus with 90 samples.

Results

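The 9 genes described here encode enzymes whose activity in serum is read as a sign of liver injury, or close relatives of those enzymes. They are the aminotransferases Gpt, Gpt2, Got1 and Got2, the dehydrogenases Ldha, Glud1 and Sord, and the cell surface enzymes Alpl and Ggt1. They were chosen by name, with earlier results of these data known, and make up 9 of the 18223 genes in the deposited tables. Of the 9, 8 passed the filter on low counts and were tested among 13248 genes, and Ggt1 did not pass. Liver RNA was sequenced from 49 animals given zileuton, an inhibitor of 5-lipoxygenase, at 300 mg/kg by mouth once a day for 7 days, and from 41 animals given sterile distilled water in the same way. All were female Diversity Outbred mice (J:DO), an outbred stock in which every animal carries its own mixture of founder genomes, aged 6 to 20 weeks, and each library came from 25 mg of the liver of 1 animal. Coats were agouti in 34 zileuton and 29 vehicle animals, white in 9 and 6, and black in 6 and 6. Serum enzyme activities were not analysed here, so every value below is a transcript level.

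Alanine aminotransferase (ALT) and aspartate aminotransferase (AST) move amino groups between amino acids and keto acids, and each exists as a cytosolic and a mitochondrial form made from separate genes. Lactate dehydrogenase, glutamate dehydrogenase and sorbitol dehydrogenase are soluble enzymes that leak from damaged hepatocytes, whereas alkaline phosphatase and gamma-glutamyl transferase sit on the outer face of the plasma membrane and are read as signs of impaired bile flow. A serum activity reflects release and clearance of protein as well as synthesis, which RNA does not measure.

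Sequencing depth was alike in both groups: the median library held 25083838 estimated counts in zileuton animals and 26105475 in vehicle animals, within 12664579 to 41360187 overall. The groups also differed in how the animals were numbered. In each of 8 runs of 50 consecutive animal numbers, zileuton animals held positions 25 to 50 and vehicle animals positions 13 to 20, and the labels do not say what the order stands for. A clock score, the mean standardized level of 11 genes that peak opposite to Bmal1 minus that of 5 genes that peak with it, averaged 1.11 ± 1.17 in zileuton livers and -1.32 ± 1.27 in vehicle livers (SD, n = 49 and 41), and 48 of 49 zileuton livers lay above the vehicle median. Treatment and position in the run cannot be told apart in this design. The clock score was computed from the same livers after treatment, and whether treatment moved it was not tested. A fit with the score as a covariate may therefore also take out part of a treatment difference.

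Per kilobase of exons, the levels of 7 of the genes lay within a few-fold of each other, Alpl lay far below them, and Ggt1 lay near 0. The median level was 315 CPM (counts scaled to a common library size) per kilobase for Sord in zileuton livers and 293 in vehicle livers. For Glud1 it was 260 in zileuton livers and 301 in vehicle livers, so that the order of these 2 genes differed between the groups. Neighbours in the order overlapped over animals from Sord or Glud1 at the top, through Ldha, Got1, Gpt and Got2, down to Gpt2, at 85.0 CPM per kilobase in zileuton livers and 70.9 in vehicle livers. Alpl had a median of 3.65 CPM per kilobase in zileuton livers and 2.38 in vehicle livers, and its highest animal lay below the lowest animal of Gpt2 in both groups. The order within the upper 7 depends on the length used: with the longest transcript of each gene, Got2 stood at 204 CPM per kilobase in zileuton livers and 187 in vehicle livers, above Got1 at 149 and 170.

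**Figure D1:**
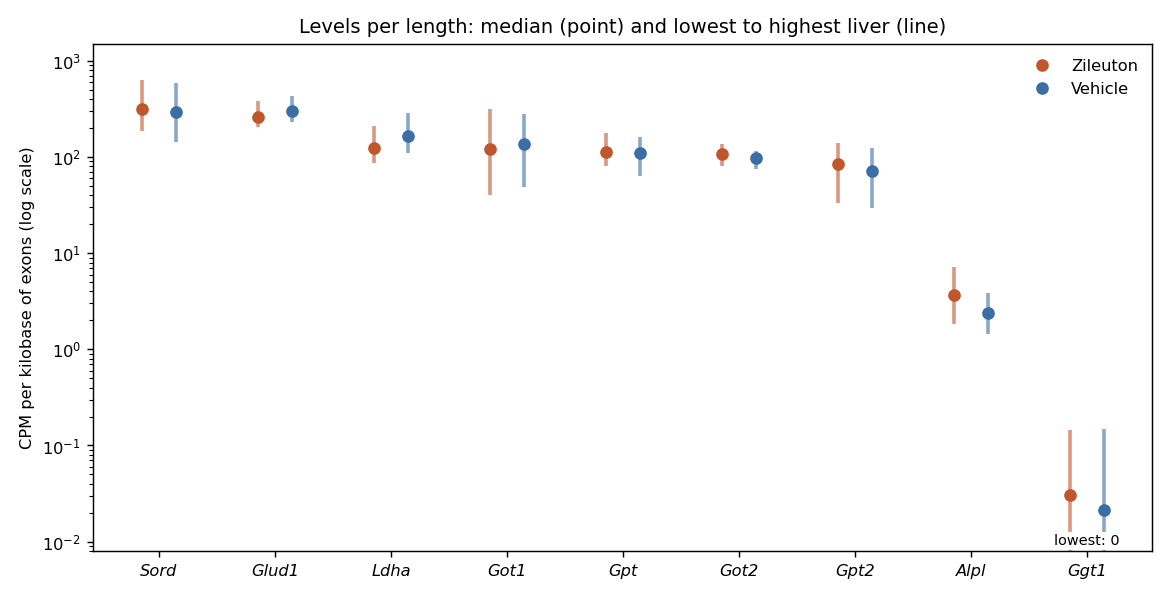
Level per kilobase of the union of exons (log scale) of each of the 9 genes, with the median liver as a point and the lowest to highest liver as a line, for 49 zileuton and 41 vehicle livers. Alpl, at medians of 3.65 in zileuton and 2.38 in vehicle livers, and Ggt1, whose lowest livers are at 0 and run off the axis, stand apart from the other 7 genes.

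Between zileuton and vehicle livers, Alpl, Gpt2 and Got2 were higher, Ldha and Glud1 were lower, and Gpt, Got1 and Sord did not pass the test. Of the 8 genes tested, 5 were called by edgeR's quasi-likelihood test at an adjusted p under 0.05, 3 higher and 2 lower. Over all genes tested 29.3% were called, 14.4% higher and 14.8% lower. The 8 were chosen with earlier results of these data known, so their count is a description and was not tested as an excess. None of the 5 changed by 2-fold or more. The median log2 fold change was 0.08 over the 8 genes and -0.01 over all genes tested, and the median size of the change without its sign was 0.19 and 0.10. No call held with the clock score as a covariate or with the position of the animal number as a covariate. Both covariates follow the groups, and the errors were larger in these fits. With the position Got2 was at 0.154 ± 0.080 (SE), against 0.156 ± 0.037 with treatment alone. Alpl was at 0.52 ± 0.19 against 0.68 ± 0.09, and Ldha at -0.12 ± 0.13 against -0.40 ± 0.06. A call lost in such a fit does not show that a difference is absent. Calls over all 13248 genes also fell, from 3878 with treatment alone to 384 with the clock score and 217 with the position. With the clock score 0 of the 8 were called, 3 of them (Ldha, Glud1 and Alpl) at an unadjusted p under 0.05. With the position 0 were called, and 1 (Alpl) had an unadjusted p under 0.05.

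**Figure D2:**
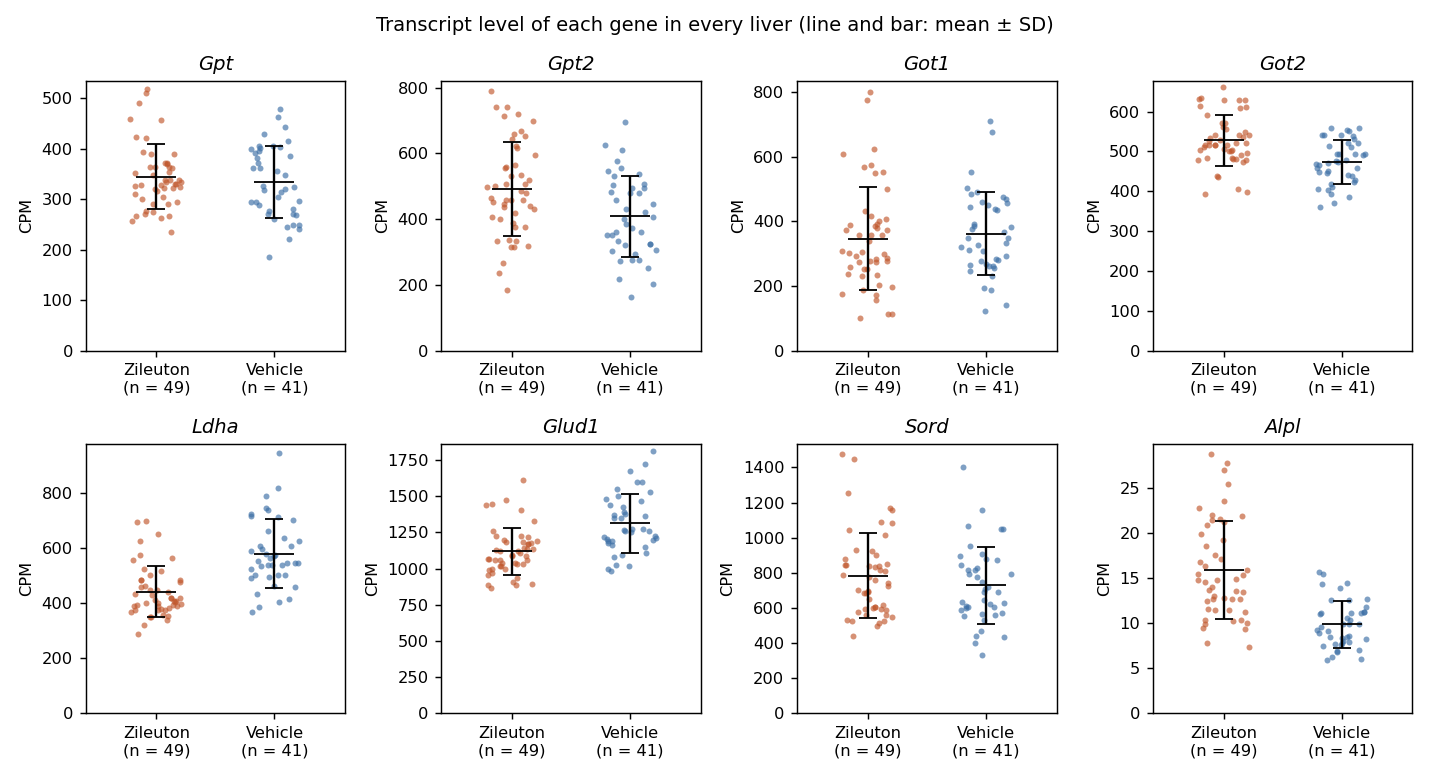
CPM of the 8 tested genes in every liver, with zileuton animals (n = 49) left of vehicle animals (n = 41) and the mean ± SD in black. The groups overlap in every panel, with 45 and 44 of 49 zileuton livers above the vehicle median for Alpl and Got2, and 42 and 43 below it for Ldha and Glud1.

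Gpt encodes cytosolic ALT, the source of much of the ALT activity read in serum. It lies on chromosome 15 from 76695716 to 76699686 on the plus strand (mm10). Zileuton livers ran from 235 through a median of 334 to 517 CPM, and vehicle livers from 186 through 323 to 479 CPM. The groups covered nearly the same range, and 31 of 49 zileuton livers lay above the vehicle median. Means were 345 ± 64.1 CPM in zileuton livers and 334 ± 71.1 CPM in vehicle livers (SD), with a log2 fold change of 0.05 ± 0.06 (SE, adjusted p = 0.610, edgeR) and a 95% interval from -0.07 to 0.17. The difference was smaller than the spread between animals.

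Gpt2 encodes mitochondrial ALT (chromosome 8, 85492576 to 85527560, plus strand). It ran from 186 through 480 to 789 CPM in zileuton livers and from 165 through 400 to 696 CPM in vehicle livers. The lowest animals of both groups were alike, 36 of 49 zileuton livers lay above the vehicle median and 6 lay above the highest vehicle liver. The means, 493.3 ± 143 CPM in zileuton livers and 408 ± 124 CPM in vehicle livers, gave a log2 fold change of 0.27 ± 0.09 (1.21-fold, adjusted p = 0.0196, edgeR). This was the call nearest to the threshold: without the third run of animal numbers the adjusted p was 0.0529, and without the fourth run it was 0.130.

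Got1 encodes cytosolic AST (chromosome 19, 43499752 to 43524605, minus strand) and varied most between animals of the 8 genes. Zileuton livers spanned 102 to 800 CPM with a median of 307, a 7.86-fold range, and vehicle livers 123 to 711 CPM with a median of 349, a 5.77-fold range. The coefficient of variation between animals was 45.6% in zileuton livers and 35.5% in vehicle livers. The 2 groups overlapped almost wholly, with 27 of 49 zileuton livers below the vehicle median. The log2 fold change was -0.06 ± 0.13 (SE, adjusted p = 0.765, edgeR), with a 95% interval from -0.31 to 0.19, so that a change within these bounds could not be told from none.

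Got2 encodes mitochondrial AST (chromosome 8, 95864134 to 95888547, minus strand), a part of the malate-aspartate shuttle that carries reducing power into mitochondria. It varied least of the 8 genes, with a coefficient of variation of 11.99% in zileuton livers and 11.6% in vehicle livers. Zileuton livers ran from 393 through 516 to 662 CPM, and vehicle livers from 361 through 474 to 559 CPM. The zileuton animals were shifted upward as a group, 44 of 49 lying above the vehicle median and 13 above the highest vehicle liver. The small change passed the test: 528 ± 63.3 CPM in zileuton livers and 474 ± 54.8 CPM in vehicle livers, a log2 fold change of 0.16 ± 0.04 (1.11-fold, adjusted p = 6.33e-04, edgeR).

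The ratio of cytosolic to mitochondrial transcript was lower in zileuton livers for both aminotransferases, as a description without a test. The log2 ratio of Gpt to Gpt2 averaged -0.47 ± 0.41 in zileuton livers and -0.25 ± 0.39 in vehicle livers (SD), and 36 of 49 zileuton livers lay below the vehicle median. That of Got1 to Got2 averaged -0.74 ± 0.63 in zileuton livers and -0.47 ± 0.57 in vehicle livers, with 39 of 49 below. The difference between the groups was smaller than 1 SD between animals in both cases.

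Ldha encodes the A subunit of lactate dehydrogenase, which interconverts pyruvate and lactate. The gene lies on chromosome 7 from 46841475 to 46855627 (plus strand). Zileuton livers ran from 288 through a median of 411 to 696 CPM, and vehicle livers from 367 through 551 to 945 CPM. The groups overlapped, yet 42 of 49 zileuton livers lay below the vehicle median, 40 lay below the vehicle lower quartile and 7 below the lowest vehicle liver. The means were 441 ± 92.1 CPM in zileuton livers and 580 ± 124 CPM in vehicle livers, a log2 fold change of -0.40 ± 0.06 (SE, adjusted p = 2.89e-07, edgeR). With the clock score as a covariate the log2 fold change was -0.26 (adjusted p = 0.0597), and with the position it was -0.12 (adjusted p = 0.679).

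RefSeq promoters were found for 8 of the 9 genes, in 13 windows, and 1 of the windows of Ldha was the only one to hold the E-box CACGTG, the letters bound by the clock factors CLOCK and BMAL1 and by MYC. The motifs searched on both strands were CACGTG, the cyclic AMP response element TGACGTCA, and the D-box letters TTATGTAA and TTACGTAA. The window is the 250 bases before the start on the plus strand, chr7:46845554-46845803 of RefSeq's GRCm38.p6 (mm10). It is printed 5′ to 3′ with matches in capitals, and is shown because Ldha was the most clearly lower of the genes.
Ldha: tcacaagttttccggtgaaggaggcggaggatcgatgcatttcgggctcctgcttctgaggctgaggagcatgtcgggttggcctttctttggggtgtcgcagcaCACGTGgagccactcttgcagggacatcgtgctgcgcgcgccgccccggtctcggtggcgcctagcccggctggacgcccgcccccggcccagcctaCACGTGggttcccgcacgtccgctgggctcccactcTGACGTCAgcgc
It holds 2 copies of CACGTG and 1 of TGACGTCA, with no overlap between them. TGACGTCA was also found in 1 of the windows of Ggt1. Of 32851 promoter windows of this length, 6.02% hold CACGTG, 1.55% TGACGTCA, 0.819% TTATGTAA and 0.113% TTACGTAA. The second Ldha start, at 46847082, has none of the 4 in its window. The letters are a match and not a measured binding site. Ldha was lower where the clock score was higher in zileuton livers (r = -0.41), which did not pass without the 2 animals farthest from the median score. In vehicle livers the relation did not pass (r = -0.06). Alpl and Sord, with no CACGTG in their windows, followed the score in zileuton livers (r = 0.50 and 0.47). Any link between these letters and the score was not tested.

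Glud1 encodes mitochondrial glutamate dehydrogenase (GLDH), which releases ammonia from glutamate and is read in serum as a sign of damage to hepatocyte mitochondria. It lies on chromosome 14 from 34310727 to 34345265 (plus strand). Zileuton livers ran from 865 through 1096 to 1610 CPM, and vehicle livers from 985 through 1266 to 1815 CPM. Of 49 zileuton livers, 43 lay below the vehicle median and 8 below the lowest vehicle liver. The means of 1119 ± 161 CPM in zileuton livers and 1313 ± 203 CPM in vehicle livers gave a log2 fold change of -0.23 ± 0.05 (SE, adjusted p = 3.06e-05, edgeR).

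Sord encodes sorbitol dehydrogenase, the second enzyme of the polyol pathway from glucose to fructose. It lies on chromosome 2 from 122234749 to 122265340 (plus strand). It ran from 438 through 740 to 1477 CPM in zileuton livers and from 334 through 690 to 1400 CPM in vehicle livers, with 28 of 49 zileuton livers above the vehicle median. The groups overlapped almost wholly. The log2 fold change was 0.11 ± 0.09 (SE, adjusted p = 0.388, edgeR), with a 95% interval from -0.07 to 0.29, and it was -0.23 with the clock score as a covariate.

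Alpl encodes the tissue-nonspecific alkaline phosphatase, a membrane-anchored phosphatase of hepatocytes and bile canaliculi. Of the 8 genes it had the largest fold change. Zileuton livers ran from 7.34 through a median of 14.7 to 28.7 CPM, and vehicle livers from 5.88 through 9.62 to 15.7 CPM. Of 49 zileuton livers, 45 lay above the vehicle median, 39 above the vehicle upper quartile and 20 above the highest vehicle liver. The means were 15.8 ± 5.41 CPM in zileuton livers and 9.88 ± 2.59 CPM in vehicle livers, a log2 fold change of 0.68 ± 0.09 (1.61-fold, adjusted p = 7.54e-09, edgeR). With the clock score as a covariate it was 0.29 (adjusted p = 0.188), and with the position 0.52 (adjusted p = 0.149). Alpl lies on chromosome 4 from 137741733 to 137796384 on the minus strand and has 2 annotated starts.

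The windows before both starts of Alpl, on chr4:137796385-137796634 and chr4:137766476-137766725 of RefSeq's GRCm38.p6 (mm10, minus strand, 5′ to 3′), hold none of the 4 motifs and are shown in lower case throughout, for comparison with the Ldha window above.
Alpl upstream start: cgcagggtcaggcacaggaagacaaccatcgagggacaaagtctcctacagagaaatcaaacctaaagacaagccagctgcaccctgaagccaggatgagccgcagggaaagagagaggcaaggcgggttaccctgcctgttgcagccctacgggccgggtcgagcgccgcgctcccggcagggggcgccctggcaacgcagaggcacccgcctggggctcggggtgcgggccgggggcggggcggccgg
Alpl downstream start: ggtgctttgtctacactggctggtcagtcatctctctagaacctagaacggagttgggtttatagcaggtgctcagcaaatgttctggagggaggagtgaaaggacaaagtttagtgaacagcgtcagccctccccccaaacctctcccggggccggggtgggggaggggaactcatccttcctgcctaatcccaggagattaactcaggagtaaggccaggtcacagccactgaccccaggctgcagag
The absence of these letters in 250 bases says nothing about any factor.

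Ggt1 encodes gamma-glutamyl transferase 1, which breaks down glutathione outside the cell, and its transcript was close to absent from these livers. Zileuton livers held 0 to 10 estimated counts with a median of 3, and vehicle livers 0 to 11 with a median of 2. The counts summed to 152 over the 49 zileuton livers and 97 over the 41 vehicle livers, and 6 zileuton and 10 vehicle livers were at 0. The means were 0.128 ± 0.108 CPM in zileuton livers and 0.0971 ± 0.106 CPM in vehicle livers (SD), and 35 of 49 zileuton livers lay above the vehicle median. Fitted without the filter on low counts, among 18223 genes, Ggt1 had a log2 fold change of 0.41 ± 0.30 (SE, adjusted p = 0.358, edgeR) and did not pass. The gene spans chromosome 10 from 75561604 to 75586200 (plus strand).

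The sum of 10 neutrophil markers had a median of 29.2 CPM in zileuton livers (3.13 to 316) and 13.8 CPM in vehicle livers (1.38 to 550), with Camp at 0 in the median of both. Of these 10 markers only 3 passed the filter on low counts and were tested, with 0 called higher and 1 lower. The sum of 10 hepatocyte markers had a median of 120797 CPM in zileuton livers (80339 to 181346) and 138063 CPM in vehicle livers (99872 to 192357), with none at 0, and that of 10 cholangiocyte markers 42.01 CPM (20.4 to 91.4) and 46.2 CPM (22.3 to 71.3). All 10 hepatocyte markers were tested, with 0 called higher and 4 lower. Of the cholangiocyte markers 8 were tested, with 0 called higher and 1 lower. Among all genes tested 14.4% were called higher and 14.8% lower. In bulk liver, fewer cells of a type and less RNA per cell cannot be told apart. With the neutrophil, hepatocyte or cholangiocyte sum as a covariate, the same 5 of the 8 genes were called each time. With treatment alone 29.3% of all genes tested were called, and the share in these fits is not reported here. In the same order, Alpl had log2 fold changes of 0.69, 0.73 and 0.69 and Ldha of -0.44, -0.39 and -0.41. Skeletal muscle markers reached 2295 CPM in 1 zileuton liver and 4059 CPM in 1 vehicle liver, and without both of them Alpl was at 0.70 and Ldha at -0.38.

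**Figure D3:**
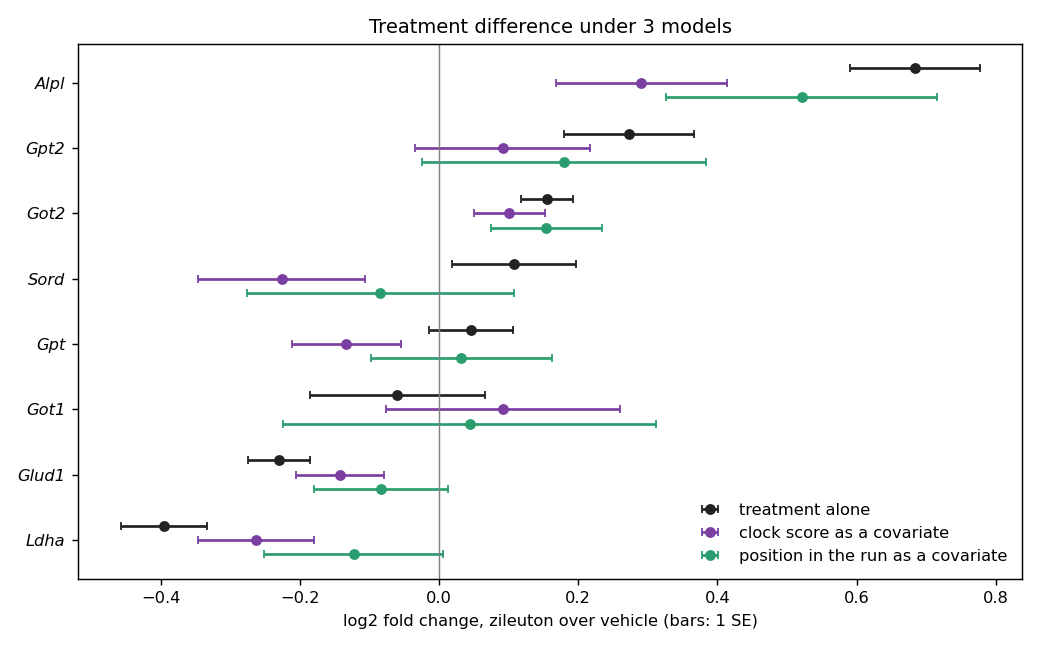
Log2 fold change of zileuton over vehicle for each tested gene (bars, 1 SE) with treatment alone, with the clock score as a covariate and with the position of the animal number as a covariate. Alpl moves from 0.68 with treatment alone to 0.29 with the clock score, Ldha from -0.40 to -0.26, and Sord, Gpt and Got1 change sign under the clock score.

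No difference in the spread between animals was found for any of the 8 genes. In a limma test of the absolute deviation from the group median of log2 CPM, 0 of the 8 were called, whereas 0.0331% of the genes in that test were. Gpt had the lowest unadjusted p (0.0496), with a mean deviation of 0.19 in zileuton livers and 0.27 in vehicle livers (adjusted p = 0.570). For Got1 the mean deviation was 0.52 in zileuton livers and 0.42 in vehicle livers (difference 0.09 ± 0.08 SE, adjusted p = 0.812). A p that misses the threshold does not show that the spreads are equal.

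Coat colour, a visible trait of the outbred stock, made no called difference to any of the 8 genes. Against agouti, 0 of the 8 passed in white animals and 0 in black animals (edgeR with treatment in the model), where 0.00755% and 0.0453% of all genes were called. At an unadjusted p under 0.05 there were 0 for white and 1 for black, Ldha at -0.19 ± 0.09 (SE, adjusted p = 0.750), and limma-voom gave 0 and 0. The treatment difference did not pass as unequal between coats for any gene: edgeR called 0 of 8 for white and 0 for black, with 0 and 0 at an unadjusted p under 0.05, whereas limma-voom had 1 at that level for white (Alpl). Background calls for these interactions were 0.0302% and 0.00755%. Alpl had medians of 15.6 CPM in agouti zileuton livers against 9.10 CPM in agouti vehicle livers, 11.5 against 10.4 CPM in white and 13.7 against 9.92 CPM in black animals.

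The levels of several of the genes were correlated between animals. Over 28 pairs of the 8 genes in each group, Pearson's r of log2 CPM passed a permutation test (adjusted over 56 relations) for 7 pairs in zileuton livers and 5 in vehicle livers. By Spearman's rho 4 and 5 passed. Gpt with Got1, with Gpt2 and with Got2 passed in both groups. Gpt with Got1 had r = 0.59 (rho = 0.53, adjusted permutation p = 5.60e-04 and 0.00457) in zileuton livers and r = 0.55 (rho = 0.54, adjusted permutation p = 0.00246 and 0.00457) in vehicle livers. Gpt with Gpt2 had r = 0.43 (rho = 0.44, adjusted permutation p = 0.0164 and 0.0116) in zileuton livers and r = 0.56 (rho = 0.56, adjusted permutation p = 0.00246 and 0.00457) in vehicle livers. Livers with more transcript of cytosolic ALT also held more of the mitochondrial form and of cytosolic AST. Gpt with Got2 had r = 0.37 (rho = 0.29, adjusted permutation p = 0.0414 and 0.163) in zileuton livers and r = 0.50 (rho = 0.52, adjusted permutation p = 0.00784 and 0.00457) in vehicle livers, so that in zileuton livers it passed by r and not by rho. Without the 2 animals farthest from the Gpt median, it did not hold in zileuton livers (r = 0.35, adjusted permutation p = 0.0628).

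Sord went with the ALT genes in vehicle livers: r = 0.58 with Gpt (rho = 0.53, adjusted permutation p = 0.00168 and 0.00457) and r = 0.59 with Gpt2 (rho = 0.54, adjusted permutation p = 8.40e-04 and 0.00457). In zileuton livers neither pair passed, but with the run of animal numbers removed Gpt2 with Sord did (r = 0.36, adjusted permutation p = 0.0434), and the difference between the groups was not tested. In vehicle livers Gpt with Glud1 passed with the run removed (r = -0.50, adjusted permutation p = 0.00665), and Ldha with Alpl passed without the 2 farthest animals (r = 0.43, adjusted permutation p = 0.0343). Ldha and Gpt2 ran in opposite directions in zileuton livers, with r = -0.42 (rho = -0.36, adjusted permutation p = 0.0223 and 0.0679). With the run removed, r was -0.59 (adjusted permutation p = 2.80e-04), and within the runs that held 6 or more zileuton animals r ran from -0.89 to -0.24, below 0 in 5 of 5. Gpt2 with Got1 (r = 0.38), Got1 with Got2 (r = 0.37) and Got2 with Glud1 (r = 0.39) also passed by r in zileuton livers, with adjusted permutation p of 0.0363, 0.0385 and 0.0329. Their values of Spearman's rho were 0.44, 0.41 and 0.32, with adjusted permutation p of 0.0116, 0.0245 and 0.109. With the run removed, Gpt2 with Got1 had r = 0.35 (adjusted permutation p = 0.0501). In the 5 runs that held 6 or more zileuton animals, the sign was the same in all 5 for each of the 7 pairs. Within the 3 such runs of vehicle animals, it was the same in all 3 for 4 of the 5 pairs and in 2 of 3 for Gpt with Got2. All genes of an animal share 1 library, its depth and its scaling.

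**Figure D4:**
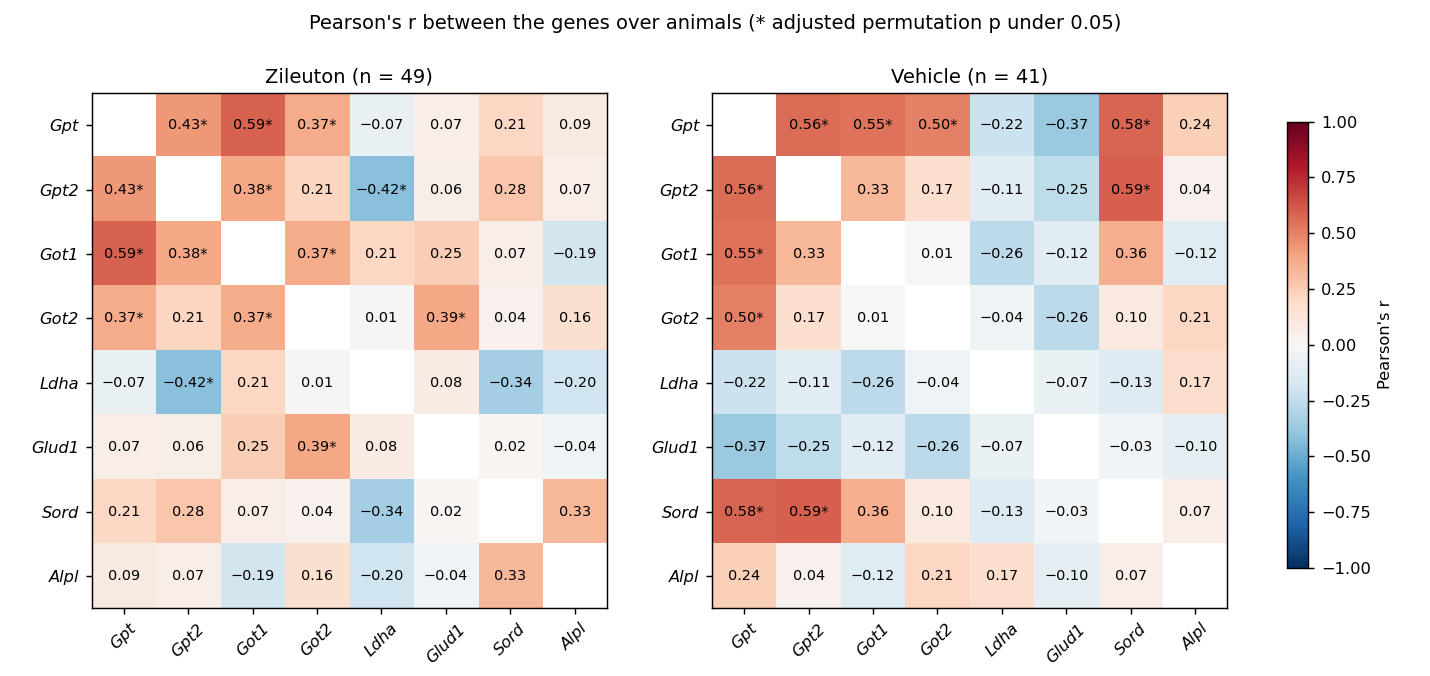
Pearson's r between the log2 CPM of the 8 genes over 49 zileuton livers and 41 vehicle livers, each from -1 to 1 by colour, with a star for an adjusted permutation p under 0.05. The highest value is 0.59 for Gpt with Got1 in zileuton livers and 0.59 for Gpt2 with Sord in vehicle livers.

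Within a group, the levels of some of the genes followed the clock score, while no relation with the position of the animal number passed. Of 32 relations, none of the 16 with position passed, and of the 16 with the clock score 5 passed by Pearson's r with permutation. By r, 1 relation with position had an unadjusted p under 0.05, that of Ldha in zileuton livers. Ldha had r = -0.29 with position in both groups (adjusted permutation p = 0.190 in zileuton and 0.249 in vehicle livers). In zileuton livers Alpl was higher where the score was higher (r = 0.50, rho = 0.53, adjusted permutation p = 0.00672 and 0.00384), and so was Sord (r = 0.47, rho = 0.49, adjusted permutation p = 0.00992 and 0.00544). Ldha was lower where the score was higher (r = -0.41, rho = -0.40, adjusted permutation p = 0.0216 and 0.0361), and this did not hold without the 2 animals farthest from the median score (r = -0.31, adjusted permutation p = 0.152). In vehicle livers Gpt followed the score (r = 0.50, rho = 0.52, adjusted permutation p = 0.0107 and 0.00544). Got2 did so by r = 0.46 (rho = 0.42, adjusted permutation p = 0.0175 and 0.0463), and without the 2 farthest animals r was 0.35 (adjusted permutation p = 0.148). With the run removed r was 0.42 for Alpl, 0.36 for Sord (adjusted permutation p = 0.0560, so no longer called) and -0.40 for Ldha in zileuton livers, and 0.51 for Gpt and 0.44 for Got2 in vehicle livers. Glud1 in vehicle livers passed with the run removed (r = -0.41, adjusted permutation p = 0.0495). In the 5 runs that held 6 or more zileuton animals, the sign of r was the same in all 5 for Alpl, Sord and Ldha. Within the 3 such runs of vehicle animals it was the same in all 3 for Gpt and in 2 of 3 for Got2. Whether the relations differ between the groups was not tested.

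**Figure D5:**
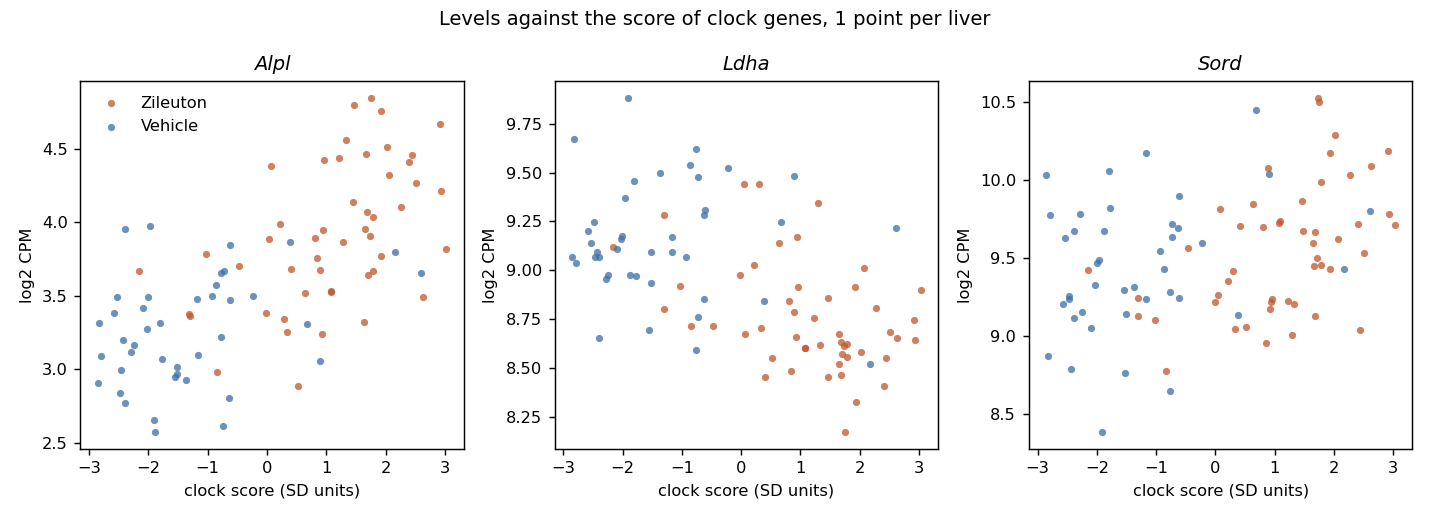
Log2 CPM of Alpl, Ldha and Sord against the clock score (in SD units), 1 point per liver for 49 zileuton and 41 vehicle livers. In zileuton livers Alpl and Sord are higher where the score is higher (r = 0.50 and 0.47) and Ldha is lower (r = -0.41), and the groups overlap in score only in part.

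The genes whose level went most closely with each of the 8 were found over all 90 animals after the group means were removed, as a description. For Gpt these were Aldh1l1, a folate enzyme, at r = 0.78, and Dcxr, a sugar reductase, at 0.76. Gpt2 went with Aldh1l1 at 0.62 and Gm4737 at 0.59. Got1 went with Hgd, an enzyme of tyrosine breakdown, at 0.77 and Gm5424 at 0.76. For Got2 they were Ndufa10, a subunit of respiratory complex I, at 0.60 and Aco1, a cytosolic aconitase, at 0.57. Sord went with Cnn3 at 0.59. Alpl went with Creb3l3, a liver transcription factor of lipid metabolism, at 0.62 and Cdk18, a protein kinase, at 0.61.

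For Ldha and Glud1, 1 of the 2 closest matches each lies close to the gene itself, in sequence for Ldha and in position for Glud1. Ldha went most closely with Gm13315 at r = 0.74, and Gm13315 is annotated as a processed pseudogene with 91.7% identity to Ldha over 999 bases, so reads may have been divided between them. The log2 fold change of Gm13315 was -0.34 ± 0.07 (SE, adjusted p = 2.45e-05, edgeR). The next was Lrg1, a plasma glycoprotein, at 0.63. Glud1 went with Fam35a at 0.57, annotated 234 bases away from Glud1 on the same chromosome, and with Eif1a at 0.50.

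Other near copies are annotated in the genome and were not analysed here. At 95% identity or more over at least 200 bases, Got2 matched the pseudogene Got2-ps1 (99.1% over 1293 bases) and the long noncoding RNA Gm10874 (98.8% over 1637 bases), Sord matched Gm6652 (99.3% over 1070 bases), Glud1 matched Glud-ps (97.6% over 656 bases) and Ldha matched 5 pseudogenes, the longest match being 1000 bases with Gm9247 at 95.6%. Levels of these 4 genes are uncertain to the extent that reads were divided or dropped there. Got2 also shares 434 bases of exon with Gm45760 on the opposite strand, and reads of the 2 cannot be told apart with a kit that does not mark strand. No near copy passed these limits for Gpt, Gpt2, Got1, Alpl or Ggt1.

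Among the other genes of glutamate and aspartate metabolism, 5 of 20 tested were called, 2 higher and 3 lower, with a median log2 fold change of -0.02. The share over all genes tested was 29.3%, 14.4% higher and 14.8% lower, and no list was tested as a set. Higher were Slc25a13 and Slc25a11, the aspartate-glutamate and malate-oxoglutarate carriers of the malate-aspartate shuttle, which work with Got1 and Got2. Slc25a13 averaged 234 ± 33.9 CPM in zileuton livers and 204 ± 26.6 CPM in vehicle livers (log2 fold change 0.20 ± 0.04 SE), and Slc25a11 90.3 ± 9.87 and 84.2 ± 10.7 CPM (0.10 ± 0.04 SE). Lower were Gls2, the liver glutaminase, at 415 ± 105 CPM in zileuton livers and 561.9 ± 166 CPM in vehicle livers, and Agxt, the alanine-glyoxylate aminotransferase, at 439 ± 99.0 and 541 ± 143 CPM (-0.44 and -0.30).

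In the list of pyruvate and lactate enzymes that adjoin Ldha, 8 of 20 were called higher and 4 lower, with a median of 0.10. For this list and the next, the shares over all genes tested were 14.4% higher and 14.8% lower. Pck1, which commits carbon to gluconeogenesis, averaged 2192 ± 1112 CPM in zileuton livers and 1535 ± 752 CPM in vehicle livers (0.51 ± 0.16 SE), and Slc16a7, a monocarboxylate carrier, 125 ± 37.8 and 88.6 ± 24.3 CPM (0.50 ± 0.09 SE). Pdk4, a kinase that switches off pyruvate dehydrogenase, averaged 8.72 ± 6.42 CPM in zileuton livers and 17.4 ± 12.1 CPM in vehicle livers (-0.997 ± 0.195 SE). Ldhb, the gene of the other lactate dehydrogenase subunit, was at -0.93 ± 0.22 (2.21 ± 1.32 CPM in zileuton livers and 4.21 ± 10.3 CPM in vehicle livers), but without the vehicle liver with muscle transcripts it was at -0.23 (adjusted p = 0.170, edgeR) and did not pass. Without both livers with muscle transcripts Ldhb was at -0.34 (adjusted p = 0.0100, edgeR) and passed. Of 20 glycolytic and hypoxia-inducible genes, 7 were higher and 0 lower, with a median of 0.03. Bnip3, a mitophagy receptor, was at 0.48 ± 0.06 (SE), above the vehicle median in 47 of 49 zileuton livers, and Egln3, an oxygen-sensing hydroxylase, at 0.53 ± 0.13 (SE).

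Of 15 tested genes of glutathione turnover, the pathway of Ggt1, 2 were higher and 4 lower. Here and for the lists that follow, 14.4% of all genes tested were higher and 14.8% lower. Oplah, which opens oxoproline to glutamate, was at 0.35 and Anpep, a peptidase, at 0.18, while Cbs and Cth, the 2 enzymes that make cysteine from homocysteine, were at -0.63 ± 0.07 and -0.43 ± 0.12 (SE). Cbs averaged 466.2 ± 115 CPM in zileuton livers and 723 ± 131 CPM in vehicle livers, below the vehicle median in 47 of 49 zileuton livers. Of the 7 genes of fructose and sorbitol metabolism, Sord among them, 0 were higher and 1 lower, Khk, the fructokinase, at -0.20 ± 0.07 (SE). Of 14 genes of phosphate and nucleotide handling at membranes, 5 were higher and 1 lower. Entpd5, a nucleoside diphosphatase, averaged 362 ± 100 CPM in zileuton livers and 242 ± 59.5 CPM in vehicle livers (0.58 ± 0.08 SE), and Slc20a1, a phosphate importer, was at 0.50 ± 0.09 (SE). Entpd8, an ectonucleotidase of the bile canaliculus, was lower in 49 of 49 zileuton livers than the vehicle median, at 59.2 ± 9.72 CPM against 77.8 ± 12.3 CPM in vehicle livers (-0.40 ± 0.05 SE).

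Other proteins read in serum as injury markers moved in both directions: of 20 genes, 3 were higher and 7 lower, with a median of -0.07. Among all genes tested 14.4% were higher and 14.8% lower. Fabp1, the liver fatty acid-binding protein, averaged 4213 ± 1259 CPM in zileuton livers and 2887 ± 859 CPM in vehicle livers (0.55 ± 0.09 SE), and Gda, a guanine deaminase, was at 0.34. Bhmt, the betaine-homocysteine methyltransferase, averaged 2290 ± 951 CPM in zileuton livers and 3216 ± 989 CPM in vehicle livers (-0.49 ± 0.11 SE). Gnmt, a glycine methyltransferase, was at -0.25 ± 0.09 (SE), and its adjusted p was 0.0610 without vehicle replicate 10.

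Fewer of the named genes of these lists were called with the 2 covariates that follow the groups. With the clock score as a covariate 3 of the 22 were called by edgeR (Gls2, Cbs and Entpd8), 8 of the 22 at an unadjusted p under 0.05. With the position 0 were called, 7 of the 22 at an unadjusted p under 0.05. Over all 13248 genes 384 and 217 were called in these fits. The 22 were picked for large called changes in these same data. With the position several log2 fold changes were at least as large as without it, with larger errors: 0.63 ± 0.19 (SE) for Fabp1, -0.60 ± 0.18 for Gls2, -0.36 ± 0.16 for Agxt, 0.61 ± 0.34 for Pck1 and -0.44 ± 0.25 for Cth. The calls of Gnmt, Slc25a11, Ldhb and Khk did not hold under 10, 8, 10 and 9 of 25 alternatives, and Khk, Slc25a13 and Pdk4 changed sign with the position as a covariate.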

How the data were processed

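Libraries were made with the TruSeq RNA v2 kit, which does not mark strand, from RNA with an integrity number of at least 8, and read on a HiSeq 2000, per the labels' protocols. Partek, STAR, DESeq2 and the build mm10 are named, without versions, per the submitters' processing notes; how reads were counted is not given in the sources used here. One table that the authors deposited holds an expected count (estimated count, 76.7% of the values whole) per gene and animal. The other holds a signal, the authors' values normalized with DESeq2 per the submitters' processing notes. Estimated counts were rounded and fitted with edgeR 4.0.16 (TMM, filterByExpr, quasi-likelihood F test, robust), Zileuton over Vehicle, with Benjamini-Hochberg adjustment over 13248 genes. Replicates are separate animals. CPM use TMM-scaled library sizes; log2 CPM use a prior count of 2. Spread used limma 3.58.1. Correlations used 100000 permutations. Alternatives used DESeq2 1.42.0, limma-voom and the deposited normalized values. The test was checked on simulated data, with the same variability set for every gene and no position or clock difference between the groups. That check does not stand as support for any call above. Gene models are GENCODE M21; near copies were sought with BLAST+ at 95% identity over 200 bases. Promoters are RefSeq's, found for 8 of the 9 genes. The members and lists were chosen with earlier results of these data known. In each list the 2 called genes with the largest change in each direction are named, and for each member the 2 genes with the highest correlation, of which 1 is not reported here. For the 8 tested genes the depth leaves the spread between animals as the limit of precision. Their biological coefficient of variation ran from 12.9% for Got2 to 40.7% for Got1, and the common value over all genes tested was 32.1%.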

Additional observations from a re-analysis of the deposited data

Results flagged for a closer look

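The 8 tested genes were looked at in white and in black animals of each treatment, 32 sets of 6 or 9 animals in all. In 5 of the 32, 1 animal lay apart from the others by Dixon's test of CPM without logs. For normally distributed values chance gives about 1 in 20 such sets. CPM need not be so distributed and the sets share animals, so 5 of 32 is not read as an excess. Ldha was at 787 CPM in white vehicle replicate 1, next to 578 CPM in the nearest animal. Glud1 was at 1060 CPM in black zileuton replicate 9, with the nearest at 1170 CPM, and at 1723 CPM in white vehicle replicate 20, with the nearest at 1423 CPM. Sord was at 1477 CPM in black zileuton replicate 9, with the nearest at 840 CPM. Alpl was at 19.9 CPM in black zileuton replicate 6, with the nearest at 14.9 CPM. No cause was tested.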

How the results depend on the processing

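No paired analysis was possible because the replicate numbers follow accession order and link no animals across groups. The 5 calls held with DESeq2, limma-voom, RLE scaling, no filter, both versions of the authors' table, coat, run and plate covariates, without the 9 smallest libraries, and without each single animal, with 5 of the genes called each time. Leaving out single animals gave 3753 to 4085 calls over all genes. The 5 calls also held with the alternatives chosen after seeing the data, the neutrophil, cholangiocyte and hepatocyte covariates and leaving out both livers with muscle transcripts. They did not hold with 2 covariates that follow the groups. With position 217 genes were called over all and 0 of the 8, at 0.18 for Gpt2, 0.15 for Got2, -0.12 for Ldha, -0.083 for Glud1, 0.52 for Alpl, and of other sign for Got1 (0.044), Sord (-0.085), Slc25a13 (-0.017), Pdk4 (0.17) and Khk (0.24). With the clock score 384 genes were called over all and 0 of the 8, at 0.091 for Gpt2, 0.10 for Got2, -0.26 for Ldha, -0.14 for Glud1, 0.29 for Alpl, and of other sign for Gpt (-0.13), Got1 (0.092) and Sord (-0.23). Gpt2 was at 0.24 without the third run and 0.21 without the fourth, neither past the threshold. Got1 was at 0.014 with plate and 0.046 with hepatocyte markers. The cause was not tested. Signs also changed for the spread difference of Got2 without the 9 smallest libraries (0.011). Got1, black minus agouti, was -0.029 by limma-voom, and Got2, black minus agouti, was -0.0145 with run. Of the clock and position relations, 3 held without the 2 farthest animals, in place of 5. Of the 9 genes, depth limits Ggt1 most, with at most 11 counts in a liver.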
